A study of Mus musculus with 11 samples.

Results

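The genes that carry a hematopoietic stem cell (HSC) from G1 into S phase were examined in RNA-Seq counts of HSC from control, NA10hd and NV mice. The 10 members were chosen by name and function, with earlier results of these data known. The list held the D cyclins Ccnd1, Ccnd2 and Ccnd3, their partner kinases Cdk4 and Cdk6, the inhibitors Cdkn1a, Cdkn1b, Cdkn1c and Cdkn2c, and the substrate Rb1. They were 10 of the 37991 Ensembl genes in the count table, and all 10 passed the filter on low counts in every comparison. NA10hd mice carried a NUP98-HOXA10HD fusion (NA) behind a floxed stop cassette in the ROSA26 locus, opened by Vav-Cre, which acts across blood cells. NV mice carried an NrasG12D allele behind such a cassette, opened by the same Cre. Control mice were wild type by their labels and littermates by the study's methods. In the study's flow cytometry and transplantation, control littermates of NA10hd mice carried the closed cassette without Cre, and the genotype of the RNA-Seq controls is not given more closely in the sources used here. All mice were C57BL/6 and 8 weeks old, and each library was amplified from the polyA RNA of 1000 sorted bone marrow HSC. The HSC gate was Lin-CD48-c-Kit+Sca1+CD135-CD150+ in the study's text, while a legend of the study on these libraries gives it without CD48. There were 4 control, 4 NA10hd and 3 NV libraries. The study calls the libraries of a group biological replicates, and neither it nor the labels say how mice were divided among the aliquots. Of the 11 libraries, 5 held both Xist and Y-linked counts, so transcripts of both sexes were in the same library. P-values thus measure the spread between these libraries, which may be technical in part.

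D cyclins are made when growth factors signal, bind Cdk4 or Cdk6 and switch on their kinase activity. The active kinases phosphorylate Rb1, which then releases E2F transcription factors and with them the genes of DNA replication. The Ink4 inhibitor Cdkn2c (p18) binds Cdk4 and Cdk6 directly, whereas the Cip/Kip inhibitors Cdkn1a (p21), Cdkn1b (p27) and Cdkn1c (p57) bind cyclin-Cdk complexes and block Cdk2 most strongly. In adult HSC, most of which rest outside the cycle, Cdkn1c and Cdkn1b are known for keeping the resting state and Cdk6 for setting how readily a cell leaves it.

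In NV HSC, Cdk6 was 3.47-fold higher and Cdkn1c 2.71-fold lower than in control HSC, and both passed the test. The Cdk6 call held with any library left out, whereas the Cdkn1c call was lost in 5 of the 7 fits that left a library out. In NA10hd HSC, none of the 10 genes passed the test against control, and the smallest p belonged to Cdkn1b, at 28.9 ± 7.92 CPM (counts scaled to library size, SD, n = 4) beside 8.59 ± 2.16 CPM (SD, n = 4). Compared directly, NA10hd HSC had less Cdk4, Cdk6 and Cdkn2c and more Cdkn1c than NV HSC. Of these 4 calls, that of Cdkn1c held with any library left out, and the other 3 were each lost without any 1 of the NV libraries. The D cyclins Ccnd1, Ccnd2 and Ccnd3 passed the test in none of the 3 comparisons. A gene was called when its adjusted p in edgeR's quasi-likelihood test was under 0.05 and its fold above 1.5, with the adjustment over all genes tested.

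Read against all genes, the members were called as follows. In NA10hd against control 0 of 10 members were called, where 0.00766% of the 13060 genes tested were called, 0% higher and 0.00766% lower, the count being 1 gene. At an unadjusted p under 0.05 there were 4 of 10 members (Cdkn1a, Cdkn1b, Cdkn1c, Rb1), beside 11.9% of all genes. DESeq2 called 1 member, Cdkn1b, where it called 238 genes in all. In NV against control 2 of 10 members were called, 1 higher and 1 lower, where 4.76% of 13462 genes were called, 2.55% higher and 2.21% lower. In NA10hd against NV 4 of 10 members were called, 1 higher and 3 lower, where 5.08% of 13461 genes were called, 2.3% higher and 2.79% lower. At an unadjusted p under 0.05 there were 6 of 10 members in NV against control and 7 of 10 in NA10hd against NV, beside 19.5% of all genes in each. The median log2 fold change of the members was -0.13, 0.28 and -0.46 in these 3 comparisons, and that of all genes was 0.02, -0.01 and 0.01. NA10hd and NV were compared with the same 4 control libraries. The members were chosen with earlier results of these data known. Their counts beside the shares of all genes are therefore a description and no test of the members as a set. Cdk4 and Cdk6 are also named by the study from these libraries, so their direction is not independent evidence.

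**Figure D1:**
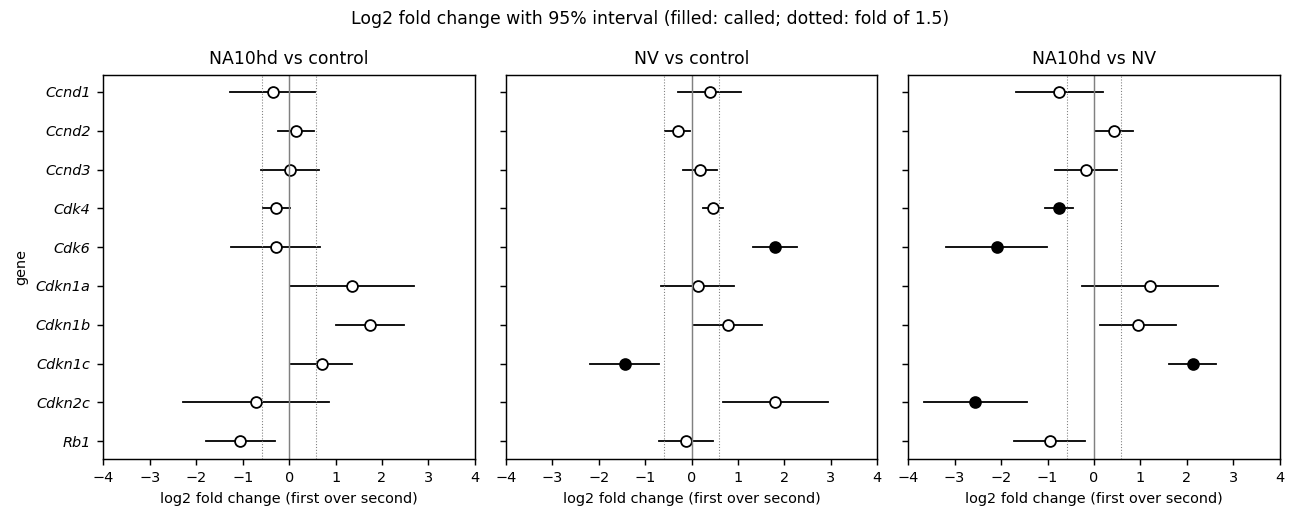
Log2 fold change of each of the 10 genes (x axis, first group over second) in 3 comparisons, with 95% intervals as lines. Filled points were called by edgeR (adjusted p under 0.05 and fold above 1.5), and dotted lines mark a fold of 1.5. Filled points are Cdk6 and Cdkn1c in NV against control, and Cdk4, Cdk6, Cdkn1c and Cdkn2c in NA10hd against NV.

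Libraries held 5464815 to 14283008 counts (median 10639180) and 13859 to 15900 genes with at least 1 count. The HSC markers Kit, Ly6a, Slamf1, Procr, Mecom, Hlf and Tek were present in every library, each at 63.1 CPM or more. Of the 4 multipotent progenitor markers, Dntt was at 0 in all libraries, Cd48 reached 5.89 CPM, Flt3 (CD135) 18.7 CPM and Cd34 stood at 99.5 to 153 CPM. Lymphoid markers summed to at most 4.83 CPM, and the myeloid genes Lyz2 and Prtn3 had group means of 468 to 507 CPM and 267 to 451 CPM. Endogenous Nras stood at 68.2 to 93.9 CPM in control, 81.7 to 110 CPM in NA10hd and 111 to 113 CPM in NV libraries, and the counts do not separate its alleles or show the fusion. By sex-linked transcripts, 5 libraries held Y-linked counts alone (control replicates 1 and 4, and NA10hd replicates 1, 2 and 3), NA10hd replicate 4 held Xist alone, and the remaining 5 held both. The NV and NA10hd groups therefore shared no library of the same mix, and sex and genotype cannot be told apart between them. Control replicates 1 and 4 were also the 2 shallowest control libraries.

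The members differ widely in level. Per kilobase of exon, which puts genes of different length on a like scale, Cdk4 stood at 124 ± 10.5 CPM per kb in control HSC and Ccnd2 at 122 ± 17.9 CPM per kb (SD, n = 4 each). Ccnd3 followed at 94.6 ± 22.9 CPM per kb. The other members were lower in control: Cdkn1c at 23.8 ± 11.6, Cdk6 at 12.9 ± 3.32, Rb1 at 7.91 ± 2.83, Cdkn1a at 5.29 ± 2.43, Ccnd1 at 3.39 ± 1.23, Cdkn2c at 2.52 ± 1.97 and Cdkn1b at 1.89 ± 0.473 CPM per kb. Within this order the means of Cdk4 and Ccnd2, of Cdkn1c and Cdk6, and of each pair of neighbours from Rb1 down to Cdkn1b were closer than the larger SD of the pair. Summed over the members, the level was 1425 to 1538 CPM in control, 1263 to 1704 CPM in NA10hd and 1622 to 1721 CPM in NV libraries. In bulk libraries such as these, fewer cells of a type and less RNA per cell cannot be told apart.

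**Figure D2:**
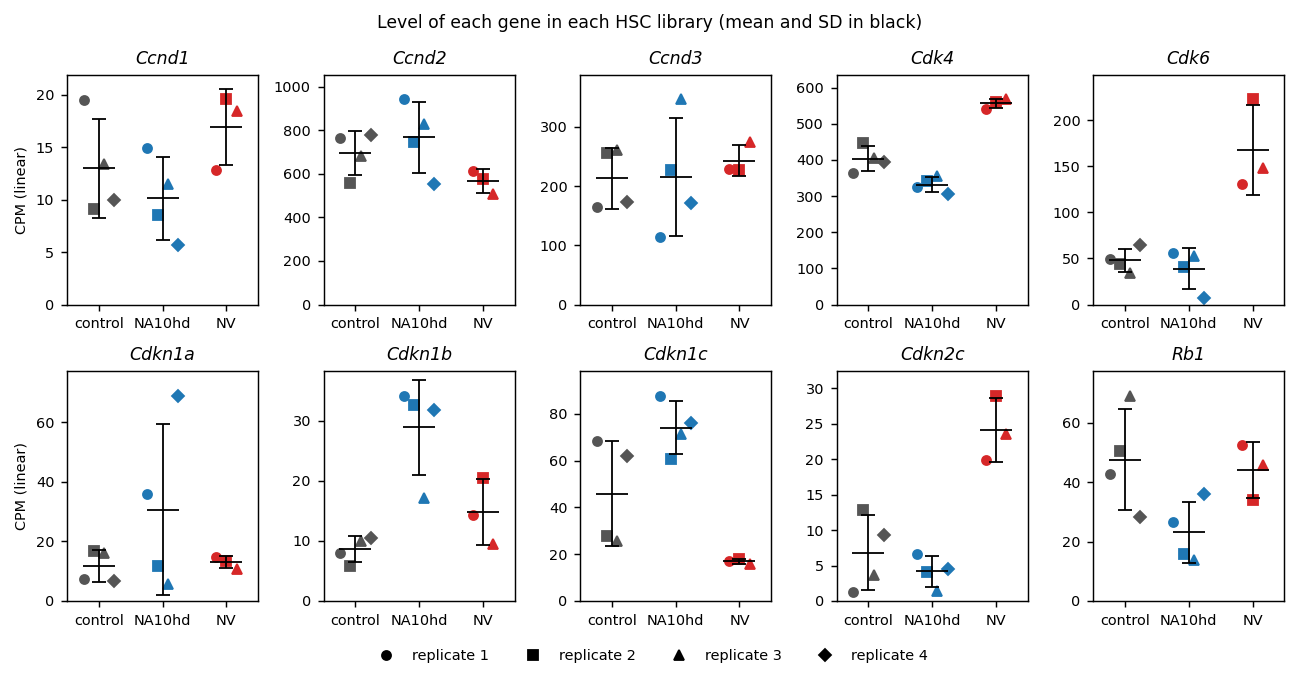
Level of each gene in each library (y axis, CPM on a linear scale that starts at 0 and differs between panels), by group, with marker shapes for the replicate numbers and the mean and SD in black. NV libraries stand above all others for Cdk4, Cdk6 and Cdkn2c and below all others for Cdkn1c, and NA10hd libraries stand above all control libraries for Cdkn1b.

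D cyclins stand at the head of the pathway. Ccnd2, the D cyclin that cytokines induce in many blood cells, was measured at 764, 556, 684 and 779 CPM in control replicates 1 to 4, at 943, 746, 829 and 555 CPM in NA10hd replicates 1 to 4, and at 614, 578 and 508 CPM in NV replicates 1 to 3. All 3 groups overlapped. The log2 fold change of Ccnd2 was 0.15 (SE 0.18, adjusted p = 0.795, edgeR) in NA10hd and -0.30 (SE 0.13, adjusted p = 0.215, edgeR) in NV against control, and 0.43 (SE 0.19, adjusted p = 0.227, edgeR) in NA10hd against NV.

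Ccnd3, a D cyclin that developing lymphocytes and red cells depend on, read 165, 255, 260 and 173 CPM in control, 114, 228, 347 and 172 CPM in NA10hd and 228, 227 and 274 CPM in NV libraries, in order of replicate number. Its spread in NA10hd, 3.04-fold between the highest and lowest library, exceeded every distance between group means. Control replicates 1 and 4 gave the low control values. The log2 fold change of Ccnd3 was 0.02 with a 95% interval of -0.60 to 0.64 in NA10hd and 0.18 with an interval of -0.19 to 0.55 in NV against control, and its sign turned in several other fits. Of the Ccnd3 exon bases, 15.7% lie within exons of Bysl on the opposite strand, which stood at 10.9 to 45.4 CPM.

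Ccnd1, which many epithelial tumours overproduce, was the scarcest D cyclin per kilobase, at 3.39 ± 1.23 CPM per kb in control, 2.64 ± 1.03 in NA10hd (SD, n = 4 each) and 4.42 ± 0.943 in NV (SD, n = 3). It rested on 40 to 289 counts per library, and groups overlapped. Of its 3835 exon bases, 818 lie within exons of Oraov1 on the opposite strand, which stood at 29.8 to 60.0 CPM, and the strand setting of the counting is not given, so the share of such reads is unknown. The log2 fold change of Ccnd1 was -0.35 (95% interval -1.26 to 0.57) in NA10hd and 0.39 (-0.29 to 1.07) in NV against control.

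Taken as shares of the D cyclin reads per kilobase, Ccnd2 made up 55.6 ± 8.996% in control, 58.7 ± 11.6% in NA10hd (SD, n = 4 each) and 47.0 ± 4.96% in NV (SD, n = 3). Ccnd3 made up 42.8 ± 9.32%, 40.2 ± 12.0% and 50.9 ± 4.78%, and Ccnd1 1.54 ± 0.587%, 1.14 ± 0.422% and 2.09 ± 0.461%. Ccnd2 and Ccnd3 together thus supplied nearly all D cyclin reads in every library. None of these 9 share differences passed a two-sided exact permutation test adjusted by Benjamini-Hochberg over 21 shares (lowest adjusted p = 0.3). The smallest unadjusted p such a test can give is 0.0286 for 4 against 4 libraries and 0.0571 for 4 against 3.

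Cdk4 and Cdk6 are the kinases that D cyclins activate, with overlapping substrates. Cdk4 (ENSMUSG00000006728, chr10:126500590-126504976 of NCBIM37, plus strand) stood at 364, 447, 406 and 395 CPM in control, 325, 343, 354 and 305 CPM in NA10hd and 542, 559 and 568 CPM in NV libraries, in order of replicate number. The 3 groups did not overlap, with every NV library above every control library and every control library above every NA10hd library. Cdk4 was 1.68-fold lower in NA10hd than in NV (log2 fold change -0.75, SE 0.14, adjusted p = 0.0115, edgeR), which was called. Against control, its log2 fold change in NV was 0.46 (95% interval 0.24 to 0.67, adjusted p = 0.0184, edgeR), a fold of 1.38 that stayed under the threshold of 1.5, and in NA10hd it was -0.28 (interval -0.57 to 0.01, adjusted p = 0.448, edgeR). Of the Cdk4 exon bases, 18.6% lie within exons of Tspan31 on the opposite strand, which stood at 7.52 to 31.2 CPM and passed the test in no comparison.

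Cdk6 (ENSMUSG00000040274, chr5:3343893-3523218 of NCBIM37, plus strand) was at 49.9, 44.2, 34.5 and 64.2 CPM in control, 55.4, 41.0, 52.8 and 6.96 CPM in NA10hd and 131, 223 and 148 CPM in NV libraries. The NV libraries were all above the other 8, and NA10hd replicate 4, with 49 counts of Cdk6, stood far below the rest of its group. Cdk6 was 3.47-fold higher in NV than in control (log2 fold change 1.80, SE 0.22, 95% interval 1.31 to 2.28, adjusted p = 0.00132, edgeR). That call held when any library was left out and was lost with all 3 groups in the same edgeR fit (adjusted p = 0.0724). Between NA10hd and control the log2 fold change of Cdk6 was -0.29 (95% interval -1.26 to 0.67), and it was 0.054 without NA10hd replicate 4.

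Between NA10hd and NV, Cdk6 was 4.28-fold lower in NA10hd (log2 fold change -2.10, SE 0.50, adjusted p = 0.0353, edgeR). The call of Cdk6 was lost without NA10hd replicate 2 or 3 or any NV library (adjusted p 0.0514 to 0.173), and that of Cdk4 without any NV library (0.0622 to 0.0886, edgeR). With each library left out in turn, the log2 fold change ran from -2.30 to -1.75 for Cdk6 and from -0.79 to -0.71 for Cdk4.

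Relative to each other, the 2 kinases were far apart. Cdk6 made up 10.6, 7.93, 6.88 and 12.4% of the Cdk4 and Cdk6 reads per kilobase in control, 12.9, 9.42, 11.5 and 1.94% in NA10hd and 17.4, 25.7 and 18.5% in NV libraries, by replicate number. Every NV library had a larger Cdk6 share than every other library. The difference of 11.1 percentage points between NV and control had an exact permutation p = 0.0571 (two-sided, n = 3 and 4), the smallest possible, and an adjusted p = 0.3. Cdk4 was the more abundant kinase per kilobase in all 11 libraries.

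The promoter-side sequences of the members that differed together between NA10hd and NV are shown because Cdk4, Cdk6 and Cdkn2c were all lower in NA10hd. RefSeq windows (GRCm38.p6, another build than that of the counts) were at hand for 6 members, and the 250 bases before each start were searched for 5 motifs on both strands: an E box (CACGTG, read alike on both strands), a GC box (GGGCGG), an E2F type site (TTTNNCGC), a forkhead type site (GTAAACA) and a CHR type element (TTTGAA). Capitals mark E boxes and GC boxes, the latter as GGGCGG or CCGCCC, and all sequences run 5′ to 3′ on the strand of the gene up to the base before the start.
Cdk4, chr10:127063285-127063534, plus strand: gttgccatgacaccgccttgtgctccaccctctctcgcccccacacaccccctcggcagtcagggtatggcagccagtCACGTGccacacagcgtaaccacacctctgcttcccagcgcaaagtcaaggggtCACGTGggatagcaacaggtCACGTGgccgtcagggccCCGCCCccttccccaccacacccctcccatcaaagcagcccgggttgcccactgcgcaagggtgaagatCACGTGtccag
Cdk6, chr5:3343643-3343892, plus strand: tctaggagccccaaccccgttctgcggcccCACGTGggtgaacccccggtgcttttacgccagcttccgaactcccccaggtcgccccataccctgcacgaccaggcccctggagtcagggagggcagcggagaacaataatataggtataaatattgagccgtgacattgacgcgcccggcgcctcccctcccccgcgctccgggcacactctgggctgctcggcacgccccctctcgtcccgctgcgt
Cdkn2c, chr4:109666757-109667006, minus strand: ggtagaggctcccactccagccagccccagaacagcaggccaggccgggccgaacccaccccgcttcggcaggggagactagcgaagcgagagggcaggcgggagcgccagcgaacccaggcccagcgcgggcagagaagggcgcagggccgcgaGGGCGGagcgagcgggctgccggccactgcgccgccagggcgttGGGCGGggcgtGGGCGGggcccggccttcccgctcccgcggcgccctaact
The Cdk4 window held 4 E boxes, from 172 to 6 bases before the start, and 1 GC box. Of all 32851 RefSeq windows of this length, 6.02% held an E box and 0.0213% held 4 or more. The Cdk6 window held 1 E box and, as the letters TTTTACGC, 1 E2F type match, found in 4.28% of all windows. The Cdkn2c window held 3 GC boxes, a motif found at least once in 32.7% of all windows, and its other RefSeq start had no match to the 5 motifs. The remaining windows of members, those of Ccnd3, Cdkn1a and Cdkn1b, held no E box, no E2F type and no CHR type match, and each had a window with 1 or 2 GC boxes. A Ccnd3 window held 1 forkhead type match (3.17% of all windows, beside 15.99% for the CHR type). Median GC content was 52.4% over all windows, beside 64.4% for Cdk4, 66.0% for Cdk6 and 77.2% for the printed Cdkn2c window, and 54.0 to 64.8% for those of Ccnd3, Cdkn1a and Cdkn1b. No match overlapped another. A match here describes letters and does not show that a factor binds.

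Cdkn1c (p57, ENSMUSG00000037664, chr7:150644255-150646955 of NCBIM37, minus strand), an imprinted gene expressed from the maternal copy, had the smallest p of any member in any comparison, that of NA10hd with NV. It stood at 68.3, 27.7, 25.7 and 62.1 CPM in control, 87.9, 60.8, 71.6 and 76.2 CPM in NA10hd and 17.0, 18.1 and 15.7 CPM in NV libraries, by replicate number. All NV libraries were below the other 8, the NA10hd libraries overlapped with control replicates 1 and 4, and control itself split into a high and a low pair. Cdkn1c was 4.36-fold higher in NA10hd than in NV (log2 fold change 2.12, SE 0.23, 95% interval 1.62 to 2.63, adjusted p = 0.000676, edgeR). This call held in every alternative fit that could be run and with any library left out. A fit on libraries of the same Xist and Y-linked mix could not be run, because NA10hd and NV shared no such mix. The high control pair held Y-linked counts alone and the low pair held both.

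Against control, Cdkn1c fell in NV with a log2 fold change of -1.44 (SE 0.34, adjusted p = 0.0294, edgeR). Without any NV library, or without control replicate 1 or 4, the adjusted p lay between 0.0801 and 0.120, and by limma-voom it was 0.0830. With only control replicates 2 and 3, which share the mix of Xist and Y-linked counts of the NV libraries, the log2 fold change was -0.66 (adjusted p = 0.220, edgeR). In NA10hd against control the log2 fold change of Cdkn1c was 0.70 (95% interval 0.04 to 1.36, adjusted p = 0.388, edgeR), and it was 0.17 among libraries with only Y-linked counts.

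Genes around Cdkn1c in its imprinted domain were read beside it. Of 9 listed neighbours, Kcnq1ot1 was not in the count table. Of the 8 in the table, 6 passed the filter in NA10hd against control and 7 in each of the other comparisons. None was called in NA10hd against control, NV against control or NA10hd against NV, beside 0.00766%, 4.76% and 5.08% of all genes. At an unadjusted p under 0.05 there were 2, 1 and 2 neighbours, beside 11.9%, 19.5% and 19.5% of all genes. Their median log2 fold changes were 0.17, -0.09 and 0.20. Tssc4 stood at 71.9 CPM in NA10hd and 36.7 CPM in control (log2 fold change 0.97, adjusted p = 0.249, edgeR), and Slc22a18, a transporter gene, at 33.2 and 20.1 CPM (0.73, adjusted p = 0.370). Phlda2, which lies next to Slc22a18, stood at 17.2 and 18.1 CPM. The smallest adjusted p of these neighbours was that of Tspan32 in NV against control, at 623 and 462 CPM (log2 fold change 0.43, SE 0.09, adjusted p = 0.0184, edgeR), a fold under the threshold of 1.5 and of the opposite sign to Cdkn1c. In NA10hd against NV its log2 fold change was -0.41 (adjusted p = 0.149, edgeR).

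Cdkn1b (p27, ENSMUSG00000003031, chr6:134870419-134875531 of NCBIM37, plus strand) stood at 8.05, 5.78, 10.04 and 10.5 CPM in control, 34.2, 32.5, 17.1 and 31.8 CPM in NA10hd and 14.3, 20.5 and 9.47 CPM in NV libraries. All 4 NA10hd libraries were above all 4 control libraries, and NA10hd replicate 3 was apart from the other 3. NV libraries overlapped with both groups. Cdkn1b ranked 20 of 13060 genes by p in NA10hd against control (log2 fold change 1.75, SE 0.34, 95% interval 1.02 to 2.48), but its adjusted p was 0.104 by edgeR. It was 0.000134 by DESeq2 and 0.0455 with all 3 groups in the same edgeR fit, the 2 of 10 other settings that called it. It was 0.150 by limma-voom, 0.394 by edgeR with the replicate number as a block and 0.989 by edgeR among libraries with only Y-linked counts. With a library left out it was 0.111 to 0.512 by edgeR, and 0 of 8 such fits called Cdkn1b. The log2 fold change of Cdkn1b was 1.60 to 1.93 with each library left out, and 0.78 (adjusted p = 0.231, edgeR) in NV against control.

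Cdkn1a (p21), a target of p53, varied more within NA10hd than any other member, with 35.9, 11.9, 5.70 and 69.0 CPM in replicates 1 to 4, a 12.1-fold range. Control libraries had 7.33, 16.9, 16.02 and 6.86 CPM and NV libraries 14.9, 13.3 and 10.8 CPM. NA10hd replicates 1 and 4 were above all other libraries, and NA10hd replicate 3 was below them all. The log2 fold change of Cdkn1a was 1.36 (95% interval 0.02 to 2.69, adjusted p = 0.414, edgeR) in NA10hd and 0.13 (-0.66 to 0.91, adjusted p = 0.894) in NV against control. Without NA10hd replicate 4 the first of these values was 0.58 (adjusted p = 0.743, edgeR).

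Other p53 targets were read beside Cdkn1a. Of 12 listed genes, 11 were tested in NA10hd against control, 5 higher and 6 lower. None was called, beside 0.00766% of all genes, and 1 had an unadjusted p under 0.05, beside 11.9%. All 12 were tested in NV against control. None was called there, beside 4.76% of all genes, and 3 had an unadjusted p under 0.05, beside 19.5%. The median log2 fold changes of the list were -0.19 and -0.09, and -0.08 in NA10hd against NV. In that last comparison 1 of 12 was called, beside 5.08% of all genes. It was Btg2, an antiproliferative gene, at 331 against 190 CPM (log2 fold change 0.79, SE 0.20, adjusted p = 0.0478, edgeR). Mdm2, which targets p53 for destruction, stood at 84.9 CPM in control, 96.8 CPM in NA10hd and 83.4 CPM in NV, and Ccng1 at 115, 85.8 and 89.7 CPM.

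As shares of the Cip/Kip reads per kilobase, Cdkn1c led in every library, with 87.5, 61.8, 58.6 and 85.7% in control, 65.8, 71.6, 85.4 and 50.9% in NA10hd and 47.1, 47.1 and 53.8% in NV, by replicate number. Cdkn1b made up 6.42 ± 2.30% in control, 11.2 ± 3.51% in NA10hd (SD, n = 4 each) and 17.8 ± 4.50% in NV (SD, n = 3). Every NV library had a larger Cdkn1b share than every control library, although its Cdkn1b level overlapped with control on the CPM scale for NV replicate 3. The differences between NV and control in the Cdkn1c share (-24.0 percentage points) and in the Cdkn1b share (11.4 points) each had an exact permutation p = 0.0571 (two-sided, n = 3 and 4), with an adjusted p = 0.3.

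**Figure D3:**
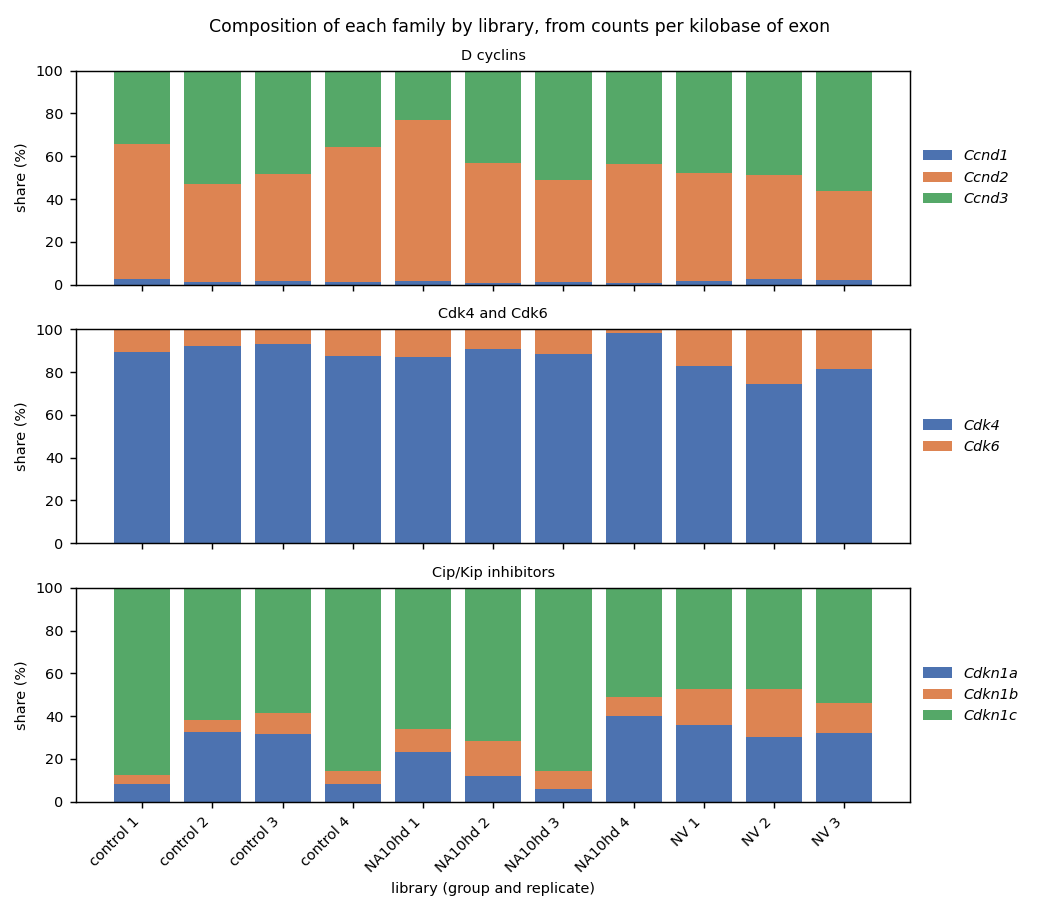
Share of each gene (y axis, percent of the family's counts per kilobase of exon) in each of the 11 libraries (x axis) for D cyclins, Cdk4 and Cdk6, and Cip/Kip inhibitors. The Cdk6 share is 17.4 to 25.7% in NV libraries and at most 12.9% elsewhere, and the Cdkn1c share is at most 53.8% in NV libraries.

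Cdkn2c (p18), the Ink4 inhibitor among the members, was scarce, with 1.25, 12.9, 3.67 and 9.28 CPM in control, 6.64, 4.06, 1.38 and 4.54 CPM in NA10hd and 19.9, 29.0 and 23.5 CPM in NV libraries. NV libraries were all above the other 8, and NA10hd and control overlapped. The lowest control and NA10hd values came from 7 and 16 counts. Cdkn2c (ENSMUSG00000028551, chr4:109333481-109339794 of NCBIM37, minus strand) was 5.87-fold lower in NA10hd than in NV (log2 fold change -2.55, SE 0.51, adjusted p = 0.0170, edgeR). This call was lost without any NV library (adjusted p 0.0589 to 0.114). In NV against control the log2 fold change of 1.81 (SE 0.52, 95% interval 0.67 to 2.94) had an adjusted p = 0.0694 by edgeR. It was 0.00937 by DESeq2, 0.0214 by limma-voom, 0.0396 by edgeR without a filter and 0.0309 by edgeR without control replicate 2. It was 0.212 with all 3 groups in the same edgeR fit and 0.144 with libraries of the same Xist and Y-linked mix. Cdkn2c was called in 4 of 9 other settings and in 1 of 7 fits with a library left out (adjusted p 0.0309 to 0.218, edgeR).

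Of the other Ink4 genes, which also bind Cdk4 and Cdk6, Cdkn2a was at 0 counts in all libraries, which allows a level of up to 0.0266 CPM over the 11 libraries at 3 counts (counting error only), and Cdkn2b was at 0 in NV. Cdkn2d (p19) was tested in all 3 comparisons and not called (unadjusted p 0.0689 to 0.648), at 10.5 CPM in control, 8.70 CPM in NA10hd and 15.3 CPM in NV.

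Rb1 (ENSMUSG00000022105, chr14:73583480-73725629 of NCBIM37, minus strand) restrains E2F until Cdk4 or Cdk6 phosphorylates it. It stood at 42.6, 50.4, 69.1 and 28.3 CPM in control, 26.5, 15.9, 13.7 and 36.1 CPM in NA10hd and 52.4, 34.0 and 45.8 CPM in NV libraries. NA10hd replicate 4 reached into the range of both other groups, and the other NA10hd libraries were below every control and NV library. The log2 fold change of Rb1 was -1.05 (95% interval -1.80 to -0.31, adjusted p = 0.289, edgeR) in NA10hd against control and -0.95 (-1.72 to -0.18, adjusted p = 0.153, edgeR) against NV. With a library left out, the latter was called in 1 of 7 fits, that without NA10hd replicate 4 (-1.24, adjusted p = 0.0471, edgeR). The adjusted p was up to 0.423 in the other fits. In NV against control the log2 fold change of Rb1 was -0.12 (-0.70 to 0.46). Rb1 shares 8.11% of its exon bases with Rcbtb2 and 6.78% with Lpar6, both on the opposite strand, at 50.1 to 127 and 29.1 to 87.3 CPM, and the share of such reads is unknown.

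Overlap between libraries was counted for all members. Between NA10hd and control, 1 member was higher in every library (Cdkn1b) and 1 lower (Cdk4), where 3.87% of all genes tested were higher and 3.94% lower without overlap. Between NV and control, 3 members were higher in every library (Cdk4, Cdk6, Cdkn2c) and 1 lower (Cdkn1c), beside 9.49% and 9.39% of all genes. Between NA10hd and NV, 1 was higher (Cdkn1c) and 3 lower (Cdk4, Cdk6, Cdkn2c), beside 9.63% and 11.3%.

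The machinery that Cdk4, Cdk6 and Rb1 feed into was read from a list of 18 other G1/S regulators, with E cyclins, cyclin A2, Cdk1, Cdk2, Cdc25a, the E2F factors and their partners Tfdp1 and Tfdp2, and the Rb relatives Rbl1 and Rbl2. In NV against control 16 of 18 were higher, with a median log2 fold change of 0.65. Of the 18, 7 were called higher (Ccna2, Cdk1, Cdk2, E2f7, E2f8, Tfdp1, Rbl1), beside 2.55% of all genes. Cdk2, the kinase that Cip/Kip inhibitors block, stood at 100 CPM in NV and 58.9 CPM in control (log2 fold change 0.76, SE 0.15, adjusted p = 0.0123, edgeR). Ccna2, its S phase cyclin, stood at 135 and 32.5 CPM (2.02, SE 0.40, adjusted p = 0.0129).

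In NA10hd against control 16 of the 18 had a negative log2 fold change, with a median of -0.64. None was called, beside 0.00766% of all genes, and 6 had an unadjusted p under 0.05, beside 11.9%. Tfdp1, which pairs with E2F, had the smallest adjusted p, 0.104, at 64.1 against 119 CPM. In NA10hd against NV 8 were called lower (Ccne2, Ccna2, Cdk1, Cdk2, E2f1, E2f7, Tfdp1, Rbl1) and none higher, beside 2.79% and 2.3% of all genes. The median log2 fold change there was -1.33. Rbl2, the Rb relative linked with resting cells, passed the test in no comparison, at 109 CPM in control, 102 CPM in NA10hd and 92.6 CPM in NV.

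**Figure D4:**
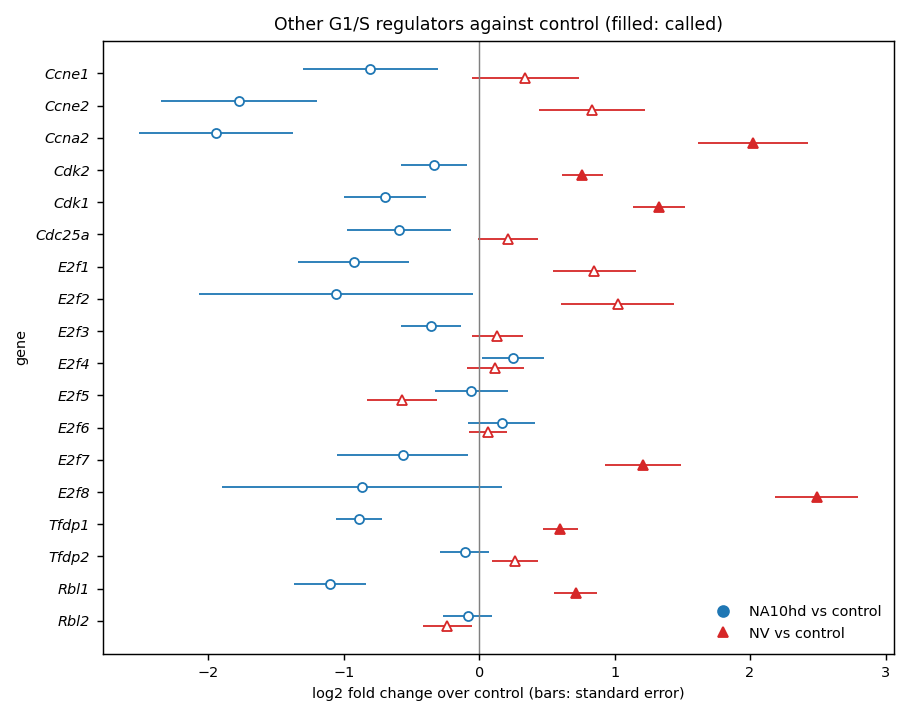
Log2 fold change over control (x axis) of 18 other G1/S regulators in NA10hd (blue circles) and NV (red triangles) HSC, with standard errors as bars, and filled symbols for called genes. Both sets share the 4 control libraries, and 7 NV symbols and no NA10hd symbol are filled.

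Genes that act on the stability of D cyclins and Cdkn1b protein were read as well. Of 10 listed, Cks1b, the cofactor with which Skp2 marks p27 for destruction, was called higher in NV than in control (127 against 68.7 CPM, log2 fold change 0.88, adjusted p = 0.0103, edgeR) and lower in NA10hd than in NV (33.7 CPM, -1.93, adjusted p = 0.000405, edgeR). No other gene of that list was called in any comparison. Of all genes, 0.00766% were called in NA10hd against control, 4.76% in NV against control and 5.08% in NA10hd against NV. Gsk3b stood at 111 CPM in NV and 75.9 CPM in control (log2 fold change 0.54, SE 0.13, adjusted p = 0.0340, edgeR), a fold under the threshold of 1.5. The list's median log2 fold change was -0.26 in NA10hd against control, 0.0049 in NV against control and -0.28 in NA10hd against NV. Skp2 stood at 8.83 CPM in NA10hd, 15.7 CPM in control and 19.8 CPM in NV. Of the 5 genes of the Cdk activating kinase and the Cdk4 chaperone pair Cdc37 and Hsp90ab1, none was called, and none had an unadjusted p under 0.05 in any comparison. Of all genes, 11.9 to 19.5% had such a p.

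Proliferation markers moved beside the members. Their sum over 10 genes was 603, 905, 848 and 616 CPM in control, 460, 461, 401 and 366 CPM in NA10hd and 1573, 1763 and 1599 CPM in NV libraries, by replicate number, so the 3 groups did not overlap. Control replicates 1 and 4, the lower pair in this sum, were the ones with more Cdkn1c and less Ccnd3 and Cdkn1a. In NV 8 of the 10 markers were called higher than in control, beside 2.55% of all genes. In NA10hd 9 were called lower than in NV, beside 2.79% of all genes. In NA10hd against control 10 of 10 had a negative log2 fold change. None was called, beside 0.00766% of all genes, and 8 had an unadjusted p under 0.05, beside 11.9%. The median log2 fold change of the markers was 1.78 in NV and -1.44 in NA10hd against control, and -3.29 in NA10hd against NV. The part of these genes in the members' differences was not tested.

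**Figure D5:**
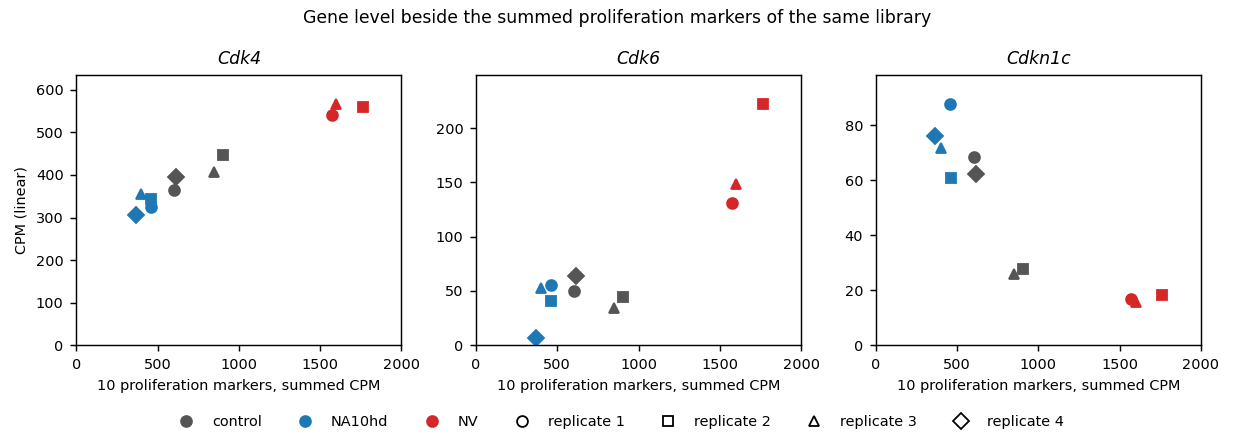
CPM of Cdk4, Cdk6 and Cdkn1c (y axes, linear, starting at 0) beside the summed CPM of 10 proliferation markers (x axis) in each library, coloured by group and shaped by replicate number. NV libraries lie at 1573 to 1763 CPM of markers, control at 603 to 905 CPM and NA10hd at 366 to 461 CPM, and the 2 control libraries with more Cdkn1c are those with the lower marker sums.

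Markers of HSC and of other cells also differed between groups. Of the HSC markers, Ly6a (Sca1) was called higher and Procr lower in NV than in control, and Procr and Hlf were called higher in NA10hd than in NV. Megakaryocyte markers summed to 310 to 336 CPM in control, 240 to 407 CPM in NA10hd and 277 to 593 CPM in NV libraries, with Pf4, Itga2b and Ppbp called higher and Vwf lower in NV than in control. In NA10hd against NV, Pf4 (log2 fold change -3.42), Itga2b and Ppbp were called lower and Vwf higher. Erythroid markers summed to 58.3 to 74.7 CPM in control, 54.6 to 70.8 CPM in NA10hd and 88.1 to 136 CPM in NV libraries, with Klf1 and Epor called higher in NV than in control and Klf1 lower in NA10hd than in NV (log2 fold change -4.25). Endothelial markers, some of which HSC share, summed to 380 to 401, 453 to 541 and 331 to 370 CPM, with Emcn called lower in NV than in control and Kdr and Emcn higher in NA10hd than in NV. Myeloid markers summed to 745 to 947, 829 to 1072 and 748 to 802 CPM, with Prtn3 called higher in NA10hd than in NV and Ctsg at 0 in all libraries. The part of such cells in the values of Cdk6, Cdkn1c and the other members was not tested.

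Among 14013 genes, those whose CPM followed the called members most closely over the 11 libraries were listed by Pearson's r on the log2 scale, as a description. Cdk6 was most like Bard1, the partner of Brca1 (r = 0.98), Gnpat (r = 0.98) and 2810408I11Rik (r = 0.96). Cdkn1c was most like Mllt3, a chromatin reader known in HSC (r = 0.98, with 349 CPM in control, 478 CPM in NA10hd and 210 CPM in NV), Igf2bp2 (r = 0.96) and Ramp2 (r = 0.95). Cdk4 was most like the mitotic gene Cdca8, the repair gene Rad51ap1 and Cks2, each with r = 0.98. Cdkn2c was most like Nudt7 (r = 0.96), the repair gene Rad54l (r = 0.92) and 6720463M24Rik (r = 0.92). These libraries share 3 group means and a common depth scale, so r holds the group differences as well as the spread within groups.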

How the data were processed

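RNA-Seq was made from 11 libraries of sorted HSC. The authors amplified cDNA, prepared Nextera XT libraries, aligned reads to NCBIM37 with HISAT2 and deposited raw counts per Ensembl gene from featureCounts. Versions, the annotation release, strand and multi-mapping settings are not given in the sources used here. PCR copies carry no molecular identifiers, so limits cover counting error only. Symbols, positions and exon lengths came from the GENCODE annotation of NCBIM37, which named 37205 of 37991 IDs, and upstream sequences from RefSeq (GRCm38.p6).

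Each comparison was fitted on its own libraries with edgeR 4.0.16 (R 4.3.3): default filter on low counts, TMM, quasi-likelihood test, Benjamini-Hochberg adjustment. CPM used TMM factors set over all 11 libraries, and correlations used log2 CPM with a prior count of 2. Shares were tested by exact permutation. The fits were tested on simulated data. Alternatives were DESeq2 1.42.0, limma-voom (limma 3.58.1), other scalings and filters, all groups in the same fit, a replicate block, no fold threshold, libraries of the same Xist and Y-linked mix, and each library left out. The authors used DESeq2.

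Members and lists were chosen with earlier results of these data known. Named genes were the members, list genes called in a comparison and the 3 genes most like each called member. Other list genes, given to say what a list held, which markers were present or at 0, or how uncalled genes stood (among them Kit, Slamf1, Mecom, Tek, Cd34, Cd48, Flt3, Dntt, Lyz2, Ctsg, Cdc25a, Tfdp2, Rbl2, Cdkn2a, Cdkn2b, Cdkn2d, Cdc37, Hsp90ab1, Skp2, Mdm2, Ccng1, Tssc4, Slc22a18, Phlda2, Tspan32), Nras and genes whose exons overlap a member fell outside this rule and were named after their values were seen. Single marker genes of 2 lists are not reported here.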

Additional observations from a re-analysis of the deposited data

Results flagged for a closer look

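Within groups of 4 libraries, the gap between an extreme library and the nearest other was compared with the group's range (Dixon's test, 95% critical value) for 34 groups of member levels and shares. 2 groups passed it, and chance flags about 1 in 20. Cdkn1b stood at 17.1 CPM in NA10hd replicate 3 and at 31.8 to 34.2 CPM in the other 3 NA10hd libraries, so that library was the lowest of its group, although still above all control libraries. Ccnd1 made up 1.76% of the D cyclin reads per kilobase in NA10hd replicate 1 and 0.845 to 0.992% in the other 3 NA10hd libraries.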

How the results depend on the processing

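The member counts moved as follows. In NA10hd against control, where edgeR called 0 members, DESeq2 and the fit of all 3 groups each called 1 (Cdkn1b). In NV against control 1 member in place of 2 was called with all 3 groups in the same fit (Cdk6 was lost there, adjusted p = 0.0724) and with libraries of the same Xist and Y-linked mix, and 1 to 3 with a library left out. There 3 were called by DESeq2 and without a filter (Cdkn2c added), and without a fold threshold (Cdk4 added). In NA10hd against NV 1 to 5 in place of 4 were called with a library left out. The call of Cdkn1c in NV against control was also lost with limma-voom (adjusted p = 0.0830), and limma-voom called Cdkn2c (0.0214). Over all genes tested, calls ranged from 0 to 238 in NA10hd against control (238 by DESeq2, 39 with all 3 groups in the same fit, 8 without a filter or with 10 counts asked for in every library, 5 without NA10hd replicate 4), from 155 to 1015 in NV against control (1015 by DESeq2, 155 with all 3 groups, 301 with the same mix) and from 146 to 1480 in NA10hd against NV (1480 by DESeq2, 1152 with all 3 groups).

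Log2 fold changes near 0 changed sign. For Ccnd3 in NA10hd against control it was -0.068 with limma-voom, -0.026 with library totals and -0.066 with the replicate block, and -0.32 to 0.23 with a library left out. With the same mix it was -0.34 for Cdkn1a and -0.089 for Ccnd3 in NV against control. With a library left out it was -0.50 to 0.054 for Cdk6 in NA10hd against control, -0.30 to 0.12 for Rb1 and -0.058 to 0.35 for Cdkn1a in NV against control, and -0.51 to 0.037 for Ccnd3 in NA10hd against NV. The difference in the Cdkn1a share between NA10hd and control was -0.71 percentage points with counts in place of counts per kilobase, and with a library left out the share differences between NA10hd and control were -6.40 to 4.98 points for Cdkn1a, -2.43 to 6.61 for Ccnd2, -6.25 to 3.05 for Ccnd3, -1.84 to 1.82 for Cdk6 and -10.6 to 0.897 for Cdkn1c. The cause was not tested.

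The replicate numbers did not pair libraries: deviations from the group means correlated at -0.087 to 0.026 between libraries of the same number. With the number as a replicate block, 0, 2 and 5 members were called in NA10hd against control, NV against control and NA10hd against NV, beside 0, 432 and 581 of all genes. The block lost Cdkn1c (log2 fold change -1.11, adjusted p = 0.0877) and added Cdkn2c (log2 fold change 2.43, adjusted p = 0.0306) in NV against control, and added Rb1 (-1.27, adjusted p = 0.0434) in NA10hd against NV. The lowest count of any member in any library was 7, that of Cdkn2c in control replicate 1.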
